A study of Mus musculus with 12 samples.

Results

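The genes described here are p53 and 9 of its target genes in mouse peritoneal macrophages: Trp53, Mdm2, Cdkn1a, Gdf15, Bbc3, Ccng1, Sesn1, Sesn2, Trp53inp1 and Gadd45a. They were found by matching the RefSeq accession of each array probe to these symbols, which gave 12 probes for the 10 genes out of 55681 probes and 20887 named genes on the array. Cdkn1a and Trp53inp1 had a pair of probes each, and every other gene had 1. All 12 probes were well above background on all 12 arrays, so every member was measured in every sample.

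RNA was measured on 1-colour Agilent arrays after 20 hours of culture, with 4 arrays in each of 3 groups of macrophages from C57BL/6 mice. The group LPS_IFNg_emodin received bacterial lipopolysaccharide (LPS) at 100 ng/ml, interferon gamma at 20 ng/ml and emodin, a plant anthraquinone, at 50 μM, and the mice are labelled as 9 weeks old. The group LPS_IFNg received the same 2 stimuli without emodin, also at 9 weeks, and the control group, called vehicle control in the design text, came from mice labelled as 8 weeks old. Per the series title, the question was whether emodin inhibits classical (inflammatory) macrophage activation. All cells came from wild-type mice and had attached to the dish before a night without serum, and emodin without the stimuli was not analysed here. Tissue is labelled as peritoneal macrophage, whereas the design text names WBC PMN samples.

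p53 is a transcription factor that stops the cell cycle, induces repair or triggers cell death after DNA damage and other stress. It is controlled mainly at the protein level, where the ubiquitin ligase Mdm2, itself a p53 target, marks it for destruction, so the level of Trp53 RNA is no measure of p53 activity. Its targets include inhibitors of the cell cycle, promoters of apoptosis and regulators of metabolism, and several of them are also driven by other factors, such as ATF4 and CHOP of the integrated stress response or NF-kB in inflammatory cells.

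The promoters of the members were searched for the letters that p53, NF-kB and ATF4 are known to prefer, in RefSeq windows (GRCm38.p6) from 250 bases before to 50 bases after each start. There were 14 windows for 9 members and none for Trp53inp1. The p53 full site, a pair of adjacent decamers, was counted on both strands with the C and G of each core required, and the NF-kB consensus was searched by its letters on both strands. At most 1 mismatch to the p53 site was found in 22 of 32851 windows (0.0670%), among them those of Cdkn1a and Ccng1, and at most 3 mismatches in 453 windows (1.38%), which held in addition Bbc3, Trp53 and 1 start of Sesn1. The NF-kB letters stood in 1480 windows (4.51%), among them those of Bbc3 and Trp53, and the ATF4 letters TGATGNAA stood in 1304 windows (3.97%) and in no member's window. The 4 stretches below, from 220 bases before to 20 bases after the start, are printed because they hold the closest p53 letters or both kinds of letters. Capitals mark the p53 full site, and in Bbc3 and Trp53 also the NF-kB letters.
Cdkn1a upstream start, chr17:29090759-29090998, plus strand: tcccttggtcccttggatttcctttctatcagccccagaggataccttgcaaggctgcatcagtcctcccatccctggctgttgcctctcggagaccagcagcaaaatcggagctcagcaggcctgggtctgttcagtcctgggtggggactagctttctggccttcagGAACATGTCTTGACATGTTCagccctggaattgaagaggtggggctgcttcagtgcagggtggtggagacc
Ccng1, chr11:40755267-40755506, minus strand: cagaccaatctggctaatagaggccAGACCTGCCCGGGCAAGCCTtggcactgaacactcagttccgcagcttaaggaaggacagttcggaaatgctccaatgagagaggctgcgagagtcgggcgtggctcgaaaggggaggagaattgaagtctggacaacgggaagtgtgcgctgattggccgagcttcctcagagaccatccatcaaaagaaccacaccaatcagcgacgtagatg
Bbc3 first start, chr7:16309363-16309602, plus strand: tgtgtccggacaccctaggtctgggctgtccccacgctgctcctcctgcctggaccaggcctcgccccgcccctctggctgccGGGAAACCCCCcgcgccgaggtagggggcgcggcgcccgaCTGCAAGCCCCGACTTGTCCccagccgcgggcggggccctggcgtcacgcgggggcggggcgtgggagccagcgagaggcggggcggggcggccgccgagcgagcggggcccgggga
Trp53, chr11:69580139-69580378, plus strand: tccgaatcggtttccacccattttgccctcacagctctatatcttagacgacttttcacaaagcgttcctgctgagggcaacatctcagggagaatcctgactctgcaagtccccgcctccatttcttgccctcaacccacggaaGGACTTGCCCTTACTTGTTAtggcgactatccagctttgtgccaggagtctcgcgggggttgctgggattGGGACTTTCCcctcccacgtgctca
The p53 letters begin 51 bases before the upstream start of Cdkn1a and 195 bases before that of Ccng1, with 1 mismatch each. In Bbc3 and Trp53 they begin 97 and 75 bases before the start, with 3 mismatches each. In Bbc3 the NF-kB letters match at 2 overlapping positions upstream of the p53 letters, and in Trp53 they run across the start itself; in neither do they overlap the p53 letters. These are matches of letters only, in short windows, and binding of either factor was not measured.

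Levels are given as log2 signal relative to the 75th percentile of the same array (level 0), so they compare arrays for 1 probe and not 1 probe with another. That percentile was a signal of 370 to 466 on LPS_IFNg_emodin arrays, 637 to 795 on LPS_IFNg arrays and 633 to 810 on control arrays. The spike-in RNAs, added in fixed amounts before labelling, differed by -0.055 ± 0.059 (SE, log2) between LPS_IFNg_emodin and LPS_IFNg (exact two-sided permutation p = 0.371, n = 4 each), while the median gene signal differed by -0.89 ± 0.10 (p = 0.0286, the smallest that 4 against 4 arrays can give). A scaling to the spike-ins lowers every difference of this comparison by the same amount, giving a median over all genes of -0.71 against -0.01, and both scalings are given beside each member. Against control it was not used, since the spike-ins themselves were 2.47 higher on the 8 stimulated arrays, which share a slide that holds no control array. For comparisons with control, slide, age and stimulation cannot be told apart. On 4 arrays the sex-linked genes went against the labelled sex: Xist was not above background on replicate 3 of both stimulated groups, labelled female, and was above background on control replicates 3 and 4, labelled male. Results that change without these arrays are named below.

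Of 9 macrophage markers measured, 9 were above background on every LPS_IFNg and control array and 8 on every LPS_IFNg_emodin array, where Timd4 was not. Their summed level, in multiples of the array's 75th percentile, was 535 to 642 on LPS_IFNg_emodin arrays, 448 to 519 on LPS_IFNg arrays and 651 to 662 on control arrays. Without Lyz2, the brightest of them, it was 209 to 262 on LPS_IFNg_emodin arrays, 288 to 329 on LPS_IFNg arrays and 309 to 384 on control arrays. With emodin against LPS_IFNg, 6 of the 9 markers were called lower and 2 higher (median -0.60), and 7 lower and 0 higher under spike-in scaling. Of 10 neutrophil markers, 6 or 7 were above background on LPS_IFNg_emodin arrays (summed level 31.6 to 38.9), 4 on LPS_IFNg arrays (26.1 to 31.2) and 7 to 9 on control arrays (29.4 to 42.1). Ngp was above background on no array, and Cxcr2 and Retnlg on no stimulated array. Mesothelial and fibroblast markers summed to 338 to 389 on LPS_IFNg_emodin arrays, 449 to 490 on LPS_IFNg arrays and 84.6 to 163 on control arrays, but most of this was Pdpn, which was 2.17 above control in LPS_IFNg_emodin and 2.19 in LPS_IFNg. Without Pdpn they summed to 12.8 to 41.8 on LPS_IFNg_emodin arrays, 82.9 to 160 on LPS_IFNg arrays and 20.4 to 86.5 on control arrays. Of 11 such markers tested, 5 were called lower with emodin than without and 6 were not called. Under spike-in scaling, where 66.6% of all genes were lower, 10 of the 11 were lower and 1 was not called. Against control, 9 were lower and 1 higher in LPS_IFNg_emodin (median -2.44), and 5 lower and 4 higher in LPS_IFNg. Lrrn4 and Upk3b were above background on no stimulated array. The part of these other cells in the members' values was not tested. In such bulk samples fewer cells of a type and less RNA per cell cannot be told apart.

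The members did not move as a block. With emodin on top of the stimuli, the secreted stress cytokine Gdf15, the death genes Bbc3 (encoding Puma) and Trp53inp1 stood 8.21-fold, 3.33-fold and 4.05-fold above LPS_IFNg alone, and these 3 were called higher under either scaling. Mdm2 and Cdkn1a stood 5.31-fold and 5.63-fold higher in LPS_IFNg than in control, and 6.99-fold and 7.23-fold higher in LPS_IFNg_emodin than in control. Trp53, Sesn1 and Gadd45a were lower than control in both stimulated groups. In LPS_IFNg_emodin against LPS_IFNg, 7 members were called higher (35.1% of all 13168 genes tested were), 0 lower (36.8% of all) and 3 were not called, by limma at an adjusted p under 0.05, with 0 lower at an unadjusted p under 0.05 as well. Under spike-in scaling 3 were called higher (8.60% of all), 3 lower (66.6% of all) and 4 were not called. With the replicate number as a block in that scaling, 3 were higher (10.6% of all) and 5 lower (71.5% of all), Mdm2 and Cdkn1a being added to Trp53, Sesn2 and Gadd45a. In LPS_IFNg against control, 4 were higher (33.8% of all), 5 lower (35.2% of all) and 1 was not called. In LPS_IFNg_emodin against control, 7 were higher (39.0% of all) and 3 lower (39.2% of all). The 2 comparisons with LPS_IFNg share its 4 arrays and the 2 with control share the control arrays, so they are not independent.

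**Figure D1:**
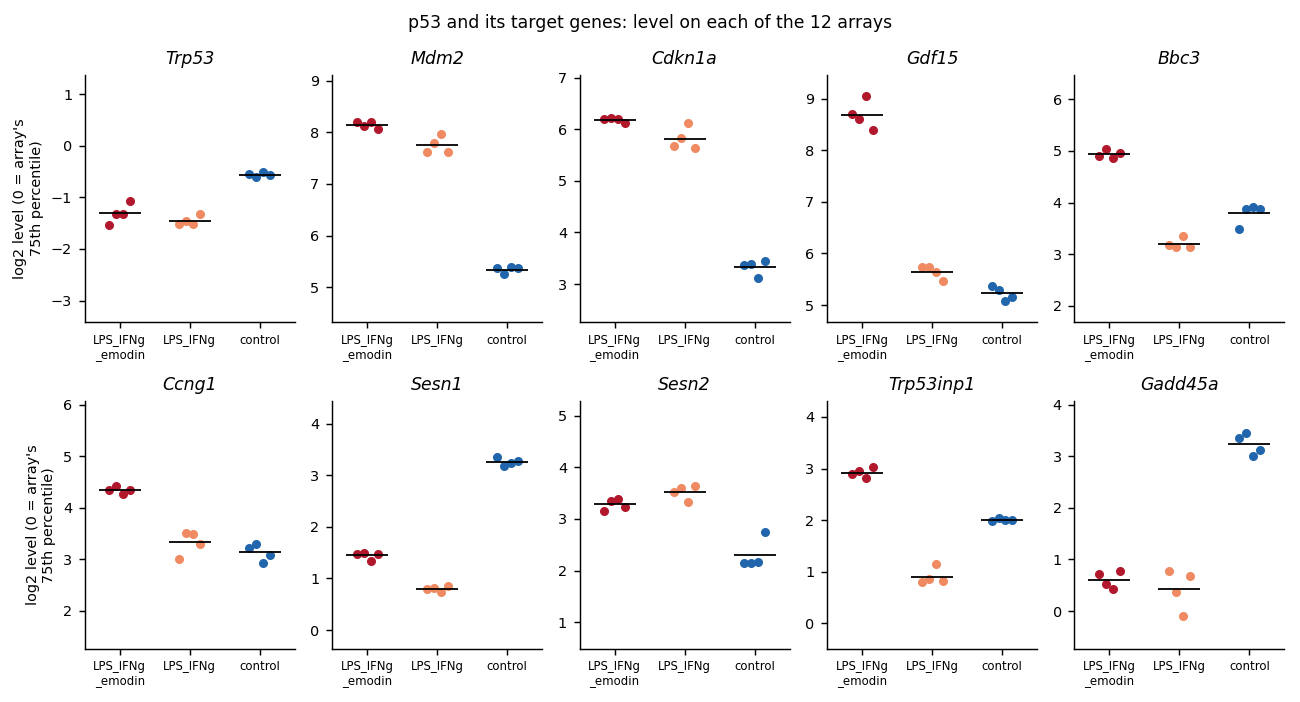
Level of each member (probe standing for the gene) on each of the 12 arrays, as log2 signal relative to the array's 75th percentile. Points are arrays and lines are means of 4, with the same span of the vertical axis in every panel. Gdf15, Bbc3, Trp53inp1 and Ccng1 are highest with emodin, Mdm2 and Cdkn1a are high in both stimulated groups, and Trp53, Sesn1 and Gadd45a are highest in control.

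Trp53, which encodes p53 itself, was lower in both stimulated groups. Its level was -1.53, -1.32, -1.32 and -1.08 on the 4 LPS_IFNg_emodin arrays, -1.52, -1.45, -1.52 and -1.33 on the LPS_IFNg arrays, and -0.55, -0.61, -0.51 and -0.57 on the control arrays. All 8 stimulated arrays lay below all control arrays, and the ranges of the 2 stimulated groups overlapped. LPS_IFNg differed from control by -0.89 ± 0.09 (SE, adjusted p = 2.83e-06) and LPS_IFNg_emodin by -0.75 ± 0.09 (adjusted p = 8.34e-06). Between LPS_IFNg_emodin and LPS_IFNg the difference was 0.14 ± 0.09, with a 95% interval of -0.05 to 0.34 (adjusted p = 0.173). Under spike-in scaling that difference was -0.56 ± 0.18 and was called lower (adjusted p = 0.0137). Without LPS_IFNg_emodin replicate 1, the lowest array of its group, the difference at the 75th percentile was 0.22 and was called (adjusted p = 0.0350).

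Mdm2, the ubiquitin ligase that limits p53, rose in both stimulated groups. Its level was 8.19, 8.13, 8.19 and 8.07 on LPS_IFNg_emodin arrays, 7.62, 7.80, 7.96 and 7.62 on LPS_IFNg arrays, and 5.37, 5.25, 5.38 and 5.36 on control arrays. No range overlapped another, and the gap between the stimulated groups was small beside their gap to control. The rise was 2.41 ± 0.08 in LPS_IFNg against control (adjusted p = 3.07e-10) and 2.81 ± 0.08 in LPS_IFNg_emodin against control (adjusted p = 6.78e-11). LPS_IFNg_emodin exceeded LPS_IFNg by 0.40 ± 0.08 (adjusted p = 0.00108), a difference that was -0.30 ± 0.14 under spike-in scaling (adjusted p = 0.0683, and 0.0249 with the replicate block) and 3.41e-05 under quantile scaling. The direction of the emodin difference for Mdm2 thus depended on the scaling. The difference from control kept its call in all 24 alternatives run, none of which used spike-in scaling.

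Cdkn1a encodes p21, the inhibitor of cyclin-dependent kinases through which p53 arrests the cell cycle. The probe standing for the gene had levels of 6.20, 6.21, 6.19 and 6.13 on LPS_IFNg_emodin arrays, 5.67, 5.83, 6.13 and 5.64 on LPS_IFNg arrays, and 3.36, 3.38, 3.11 and 3.45 on control arrays. The stimulated arrays lay far above control, the emodin arrays were nearly level with each other, and LPS_IFNg replicate 3 came within reach of them. The rise was 2.49 ± 0.11 in LPS_IFNg against control (adjusted p = 1.86e-09) and 2.85 ± 0.11 in LPS_IFNg_emodin against control (adjusted p = 3.68e-10). LPS_IFNg_emodin exceeded LPS_IFNg by 0.36 ± 0.11 (adjusted p = 0.0101), which became -0.34 ± 0.15 under spike-in scaling (adjusted p = 0.0624, and 0.0332 with the replicate block). It was also not called under quantile scaling (0.25, adjusted p = 0.0659).

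The second Cdkn1a probe, annotated to another RefSeq transcript of the gene, varied more between arrays, with processed signals of 121 to 206 on LPS_IFNg_emodin arrays, 75.9 to 209 on LPS_IFNg arrays and 35.9 to 76.3 on control arrays. Its level was -1.30, -1.18, -1.83 and -1.43 on LPS_IFNg_emodin arrays, -3.07, -2.30, -1.79 and -2.99 on LPS_IFNg arrays, and -3.95, -4.34, -4.14 and -3.41 on control arrays. Here the 2 stimulated groups overlapped through replicate 3 of LPS_IFNg, and both lay above control. The differences were 1.10 ± 0.29 for LPS_IFNg_emodin against LPS_IFNg (adjusted p = 0.00458 over all probes), 1.42 ± 0.29 for LPS_IFNg against control (adjusted p = 0.000944) and 2.53 ± 0.29 for LPS_IFNg_emodin against control (adjusted p = 6.15e-06). With spike-in scaling the first of these was 0.40 ± 0.31 (adjusted p = 0.259). Differences between the 2 probes of 1 array need no scaling: this probe minus the other fell by 1.07 ± 0.27 in LPS_IFNg against control (exact permutation p = 0.0286, 0.0429 adjusted over 9 such tests). In LPS_IFNg_emodin against LPS_IFNg the same difference was 0.74 ± 0.24 (exact p = 0.0571, adjusted 0.0735), and in LPS_IFNg_emodin against control -0.33 ± 0.23 (exact p = 0.229, adjusted 0.229). With the mean of both probes as the gene's level, LPS_IFNg_emodin exceeded LPS_IFNg by 0.73. Which start either probe reports is not settled by the tables used.

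Ccng1 encodes cyclin G1, a p53 target that recruits a phosphatase to Mdm2. Its level was 4.35, 4.42, 4.27 and 4.34 on LPS_IFNg_emodin arrays, 3.01, 3.52, 3.50 and 3.30 on LPS_IFNg arrays, and 3.22, 3.30, 2.92 and 3.09 on control arrays. The emodin arrays stood apart above all others, and LPS_IFNg overlapped control. LPS_IFNg_emodin exceeded LPS_IFNg by 1.01 ± 0.12 (adjusted p = 9.88e-06) and control by 1.21 ± 0.12 (adjusted p = 1.32e-06). Against LPS_IFNg the difference was 0.31 ± 0.18 under spike-in scaling (adjusted p = 0.136, and 0.0526 with the replicate block). LPS_IFNg against control gave 0.20 ± 0.12, with a 95% interval of -0.06 to 0.45 (adjusted p = 0.158), and 0.30 (adjusted p = 0.0185) without LPS_IFNg replicate 1, its lowest array.

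Gadd45a, a stress protein that acts in growth arrest and DNA repair, showed the largest fall among the members. Its level was 0.71, 0.53, 0.43 and 0.77 on LPS_IFNg_emodin arrays, 0.78, 0.38, -0.10 and 0.68 on LPS_IFNg arrays, and 3.36, 3.45, 3.01 and 3.12 on control arrays. The stimulated groups overlapped each other and lay far below control. Gadd45a fell by 2.80 ± 0.18 in LPS_IFNg against control (adjusted p = 4.56e-08), a 6.98-fold difference, and by 2.63 ± 0.18 in LPS_IFNg_emodin against control (adjusted p = 4.82e-08). The difference of LPS_IFNg_emodin from LPS_IFNg was 0.18 ± 0.18, with a 95% interval of -0.21 to 0.56 (adjusted p = 0.389). It was -0.52 ± 0.20 and called lower under spike-in scaling (adjusted p = 0.0349), and -0.0026 without LPS_IFNg replicate 3.

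Bbc3 encodes Puma, a BH3-only protein that starts mitochondrial apoptosis. Its level was 4.91, 5.03, 4.86 and 4.95 on LPS_IFNg_emodin arrays, 3.18, 3.14, 3.35 and 3.13 on LPS_IFNg arrays, and 3.50, 3.88, 3.91 and 3.87 on control arrays. The 3 groups were fully separate, with LPS_IFNg lowest, control between and emodin highest. Bbc3 was lower in LPS_IFNg than in control by a log2 difference of -0.59 ± 0.10 (adjusted p = 0.000184). With emodin it was 1.74 ± 0.10 above LPS_IFNg (adjusted p = 2.38e-08) and 1.15 ± 0.10 above control (adjusted p = 3.56e-07). Under spike-in scaling the emodin difference was 1.04 ± 0.14 (adjusted p = 5.00e-05).

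Trp53inp1 encodes a nuclear and autophagy-linked protein that p53 induces under stress and that promotes cell death. The probe standing for the gene had levels of 2.89, 2.96, 2.81 and 3.03 on LPS_IFNg_emodin arrays, 0.79, 0.85, 1.14 and 0.82 on LPS_IFNg arrays, and 1.98, 2.03, 2.01 and 2.00 on control arrays. It had the same order of groups as Bbc3, without overlap. LPS_IFNg differed from control by -1.10 ± 0.08 (adjusted p = 2.30e-07), LPS_IFNg_emodin from LPS_IFNg by 2.02 ± 0.08 (adjusted p = 2.83e-09), and LPS_IFNg_emodin from control by 0.92 ± 0.08 (adjusted p = 7.21e-07). Spike-in scaling left 1.32 ± 0.16 for the emodin difference (adjusted p = 1.84e-05).

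The second Trp53inp1 probe, annotated to the same RefSeq transcript, gave the largest emodin difference of the 12 probes. It was dim without emodin, with processed signals of 72.1 to 96.3 on LPS_IFNg arrays and 114 to 188 on control arrays. On LPS_IFNg_emodin arrays they were 694 to 947. Its level was 1.05, 0.96, 0.68 and 1.13 on LPS_IFNg_emodin arrays, -3.12, -3.05, -2.92 and -3.31 on LPS_IFNg arrays, and -2.22, -2.01, -2.48 and -2.32 on control arrays. The order of the groups was that of the other probe, but the emodin arrays stood much farther from the rest. LPS_IFNg_emodin exceeded LPS_IFNg by 4.06 ± 0.13 (adjusted p = 6.18e-10) and control by 3.22 ± 0.13 (adjusted p = 7.09e-10), and LPS_IFNg differed from control by -0.84 ± 0.13 (adjusted p = 0.000114). With spike-in scaling the emodin difference was 3.36 ± 0.17 (adjusted p = 1.56e-07). Over the alternatives run it was 3.18 to 4.21, and the difference of LPS_IFNg from control was -1.04 to -0.31, all of them called. Within arrays, this probe minus the other was higher by 2.04 ± 0.08 in LPS_IFNg_emodin than in LPS_IFNg and by 2.30 ± 0.11 than in control (each exact permutation p = 0.0286, adjusted 0.0429), and by 0.26 ± 0.11 in LPS_IFNg than in control (exact p = 0.0857, adjusted 0.0964). The 2 probes thus gave the same order of the groups and differed in the size of the emodin change, whichever scaling was used, and the mean of both probes gave 3.04 against LPS_IFNg and 2.07 against control.

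**Figure D2:**
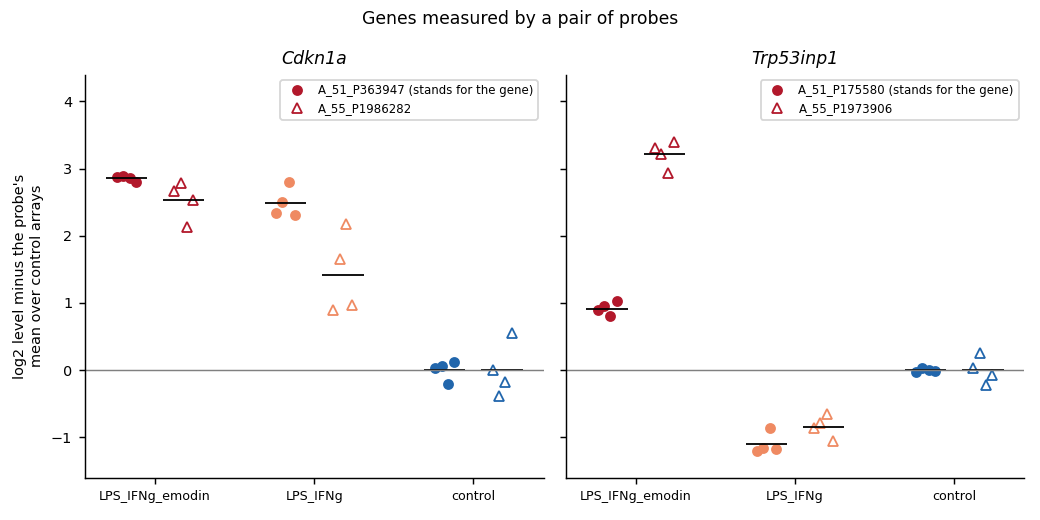
Both probes of Cdkn1a and of Trp53inp1 on each array, as log2 level minus that probe's mean over the 4 control arrays. Points are arrays, lines are means of 4, filled circles are the probe standing for the gene and open triangles the second probe. For Trp53inp1 the probes lie close in LPS_IFNg and 2.30 apart with emodin, and for Cdkn1a the second probe lies lower in LPS_IFNg.

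Sesn1 and Sesn2 encode sestrins, stress proteins that restrain the growth kinase complex mTORC1, and against control Sesn1 fell and Sesn2 rose. Sesn1 had levels of 1.48, 1.50, 1.34 and 1.47 on LPS_IFNg_emodin arrays, 0.80, 0.82, 0.73 and 0.85 on LPS_IFNg arrays, and 3.35, 3.18, 3.23 and 3.28 on control arrays. Its 3 groups were tight and separate, with control highest. Sesn1 fell by 2.46 ± 0.06 in LPS_IFNg against control (adjusted p = 3.11e-11) and by 1.81 ± 0.06 in LPS_IFNg_emodin against control (adjusted p = 2.11e-10). LPS_IFNg_emodin lay 0.65 ± 0.06 above LPS_IFNg (adjusted p = 2.49e-06), and -0.052 ± 0.14 from it under spike-in scaling (95% interval -0.36 to 0.26, adjusted p = 0.747).

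Sesn2, which also senses leucine and is a target of ATF4 as well as of p53, had levels of 3.16, 3.34, 3.39 and 3.24 on LPS_IFNg_emodin arrays, 3.53, 3.60, 3.33 and 3.63 on LPS_IFNg arrays, and 2.15, 2.15, 2.16 and 2.75 on control arrays. Both stimulated groups lay above control, whose replicate 4 stood apart from the other 3. Sesn2 rose by 1.22 ± 0.13 in LPS_IFNg against control (adjusted p = 6.16e-06) and by 0.98 ± 0.13 in LPS_IFNg_emodin against control (adjusted p = 2.70e-05). The difference of LPS_IFNg_emodin from LPS_IFNg was -0.24 ± 0.13, with a 95% interval of -0.53 to 0.05 (adjusted p = 0.128), and -0.94 ± 0.15 under spike-in scaling (adjusted p = 0.000228). At the 75th percentile it was called lower in the fit of the 8 stimulated arrays alone (adjusted p = 0.0377), without control replicate 4 (0.0196) and, at -0.34, without the 4 arrays that go against their sex labels (0.00424). The difference of Sesn2 and Sesn1 within an array, which no scaling changes, was higher by 3.68 ± 0.15 in LPS_IFNg than in control, higher by 2.79 ± 0.17 in LPS_IFNg_emodin than in control, and was -0.89 ± 0.09 in LPS_IFNg_emodin against LPS_IFNg (each exact permutation p = 0.0286, adjusted 0.0429).

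Gdf15 encodes growth differentiation factor 15, a secreted stress cytokine induced by p53 and by the integrated stress response. Its level was 8.69, 8.60, 9.06 and 8.40 on LPS_IFNg_emodin arrays, 5.74, 5.74, 5.65 and 5.47 on LPS_IFNg arrays, and 5.37, 5.30, 5.07 and 5.16 on control arrays. The emodin arrays stood far above all others, and the highest control array lay just under the lowest LPS_IFNg array. LPS_IFNg_emodin exceeded LPS_IFNg by 3.04 ± 0.13 (adjusted p = 3.67e-09) and control by 3.46 ± 0.13 (adjusted p = 3.21e-10), an 11.0-fold difference. Among all 13168 genes the first of these ranked at place 73 from the highest, and under spike-in scaling it was 2.34 ± 0.14 (adjusted p = 1.27e-07). LPS_IFNg exceeded control by 0.42 ± 0.13 (adjusted p = 0.0118), which was not called under quantile scaling (0.21) or without the control arrays labelled male (0.32, adjusted p = 0.111).

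**Figure D3:**
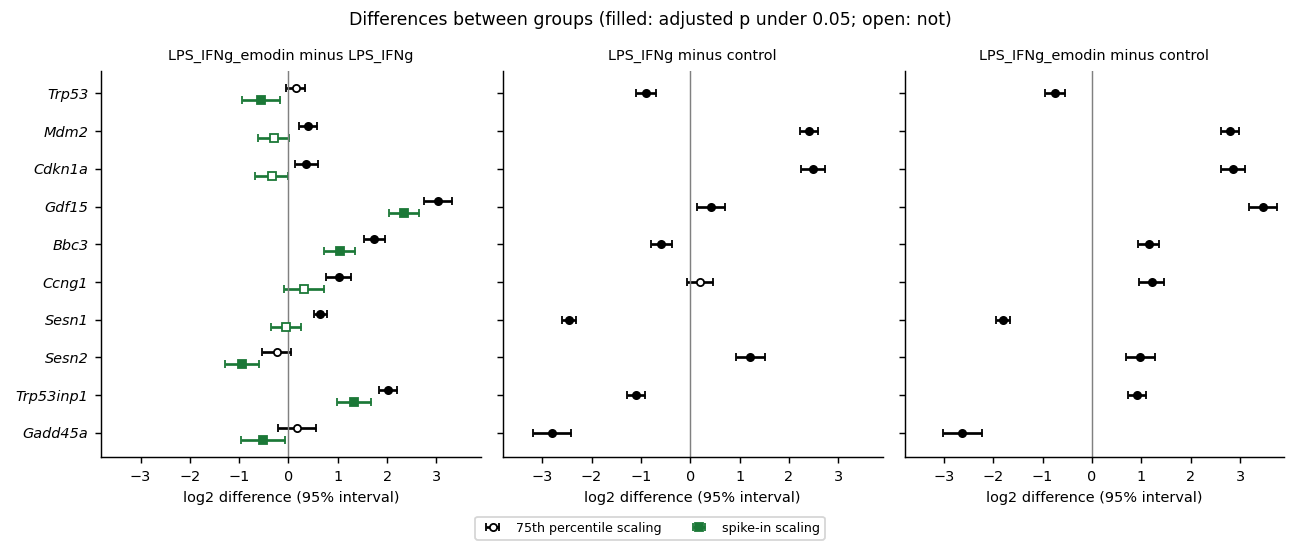
Log2 difference of each member in the 3 comparisons, with 95% intervals of the limma fit (n = 4 arrays per group). Filled symbols have an adjusted p under 0.05, circles use the 75th percentile and green squares the spike-ins. In the left panel Gdf15, Bbc3 and Trp53inp1 lie to the right of 0 under both scalings, and 5 members change side between scalings.

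The other genes of the pathway were taken from lists by role, and their counts stand beside these shares of all 13168 genes. With emodin against LPS_IFNg 35.1% of all were higher and 36.8% lower, and 8.60% and 66.6% under spike-in scaling. In LPS_IFNg against control 33.8% were higher and 35.2% lower, and in LPS_IFNg_emodin against control 39.0% and 39.2%. Among 15 regulators of p53, 7 were higher and 2 lower with emodin than with LPS_IFNg alone (median 0.26, against -0.01 for all genes), and 2 higher and 9 lower under spike-in scaling. Hipk2, a kinase that phosphorylates p53, had means of 4.58 in LPS_IFNg_emodin and 2.43 in LPS_IFNg, a rise of 2.15 ± 0.09 (adjusted p = 4.21e-09) that was 1.45 under spike-in scaling. Mdm4, the relative of Mdm2 that inhibits p53, rose by 1.82 ± 0.12 (adjusted p = 7.39e-08, spike-in 1.12). Cdkn2a, the locus of the Mdm2 inhibitor Arf and of p16, fell by 1.14 ± 0.18 (adjusted p = 0.000124, spike-in -1.84). Against control, LPS_IFNg had 6 regulators higher and 1 lower, with Mdm4 (1.17 ± 0.12), Cdkn2a (1.15 ± 0.18) and the deubiquitinase Usp7 (1.13 ± 0.11) in front, and LPS_IFNg_emodin had 11 higher and 1 lower, led by Mdm4 (2.99 ± 0.12), Hipk2 (2.06 ± 0.09) and Usp7 (1.39 ± 0.11). Mdm4 thus joined Mdm2 in being higher than control in both stimulated groups.

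Of 39 further p53 targets tested in 3 lists, 21 were higher (35.1% of all genes) and 11 lower (36.8% of all) in LPS_IFNg_emodin than in LPS_IFNg (median 0.25). Under spike-in scaling 4 were higher (8.60% of all) and 22 lower (66.6% of all), with a median of -0.45, against -0.71 for all genes. With the replicate block in that scaling, 4 genes of arrest and repair, 3 of apoptosis and 2 of metabolism and other roles were higher, against 1, 2 and 1 without it. In each of the 3 lists more genes were lower than higher with the block. Of all genes, 10.6% were higher and 71.5% lower with it. Against control, 18 were higher and 13 lower in LPS_IFNg, and 20 higher and 12 lower in LPS_IFNg_emodin. Among 12 genes of arrest and repair, 8 were higher with emodin and 2 lower, the largest being Gtse1, a G2-phase protein (1.97 ± 0.20, spike-in 1.27), Zmat3, an RNA-binding target (1.14 ± 0.19, spike-in 0.44, adjusted p = 0.109, with the block 0.0371) and Ddb2, a damage sensor of nucleotide excision repair (1.00 ± 0.08, spike-in 0.30, adjusted p = 0.0727, with the block 0.0208). In LPS_IFNg against control 4 of the 12 were higher, among them Plk3 (2.00 ± 0.16), and 7 lower, among them Ddb2 (-1.54 ± 0.08) and the ubiquitin ligase subunit Fbxw7 (-1.31 ± 0.12). In LPS_IFNg_emodin against control 6 were higher, led by Gtse1 (3.14 ± 0.20, above background on 3 of 4 control arrays), Plk2 (1.44 ± 0.10) and Sfn (1.25 ± 0.10), and 4 were lower.

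Among 11 apoptosis targets, 7 were higher with emodin than without and 1 lower, and under spike-in scaling 2 and 4. Phlda3, an inhibitor of Akt, had levels of 4.24, 4.84, 4.27 and 4.62 on LPS_IFNg_emodin arrays and of 2.13, 2.87, 3.16 and 2.70 on LPS_IFNg arrays. These ranges did not overlap, and the rise was 1.78 ± 0.23 (adjusted p = 2.51e-05, spike-in 1.08). Pmaip1, which encodes the BH3-only protein Noxa, rose by 1.29 ± 0.13 (adjusted p = 3.23e-06, spike-in 0.59), and Zfp385a by 0.99 ± 0.10 (spike-in 0.29, adjusted p = 0.0884, with the block 0.0156). In LPS_IFNg against control 4 were higher and 2 lower, with the death receptors Fas (3.02 ± 0.10) and Tnfrsf10b (2.25 ± 0.19) and Pmaip1 (0.95 ± 0.13) as the largest. In LPS_IFNg_emodin against control 8 were higher and 1 lower, led by Fas (3.55 ± 0.10), Phlda3 (2.27 ± 0.23) and Pmaip1 (2.24 ± 0.13).

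Of 16 targets of metabolism and other roles, 6 were higher and 8 lower in LPS_IFNg_emodin than in LPS_IFNg (median -0.62), and 1 higher and 13 lower under spike-in scaling. Thbs1, the matrix protein thrombospondin, fell by 2.70 ± 0.54 with emodin (adjusted p = 0.000783). Ak1, an adenylate kinase, fell by 2.37 ± 0.28 (adjusted p = 1.16e-05). Against control, 10 of the 16 were higher and 4 lower in LPS_IFNg, and the higher ones included the mTORC1 inhibitor Ddit4 (3.27 ± 0.20) and Epha2 (2.20 ± 0.53, above background on 2 of 4 control arrays). In LPS_IFNg_emodin 6 were higher and 7 lower than control, and the higher ones included Ddit4 (3.31 ± 0.20) and the thiamine transporter Slc19a2 (2.07 ± 0.16). Thbs1 is also made by fibroblasts and mesothelial cells. Of their 11 markers tested, 5 were lower in the same comparison, among them the collagen genes Col1a1 (-3.73 ± 0.38) and Col1a2 (-3.81 ± 0.42), and 6 were not called, among them Col3a1 (-0.91, adjusted p = 0.0618), Pdpn (-0.02) and Krt18 (0.47), and the part of these cells in the result was not tested.

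**Figure D4:**
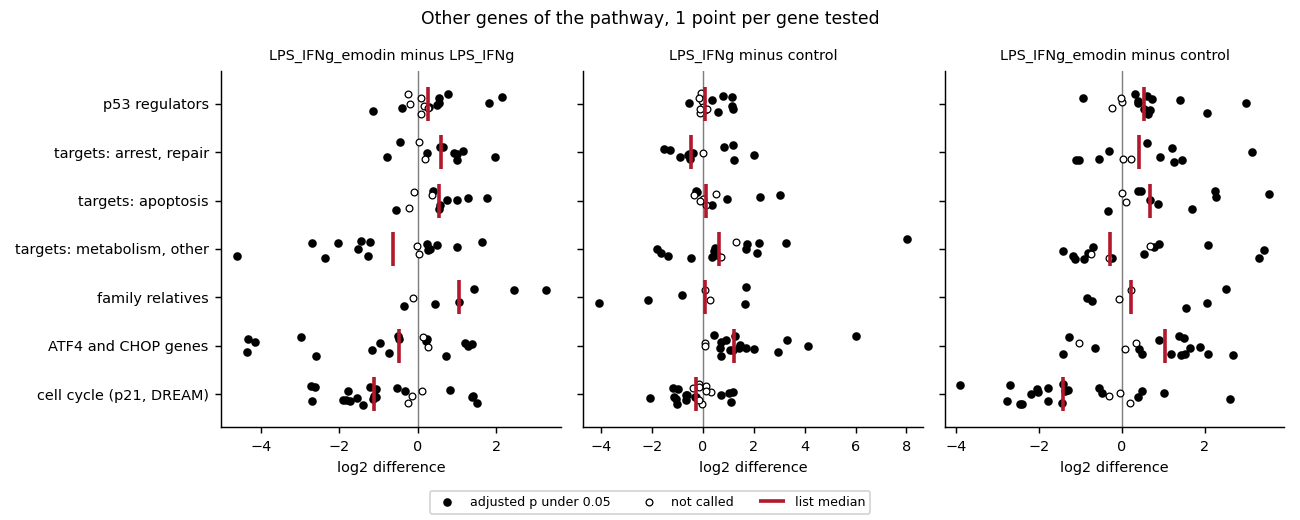
Log2 differences of the other genes of the pathway at the 75th percentile scaling, 1 point per gene tested, filled where the adjusted p is under 0.05, with the list median as a red bar. Genes below background in 1 group are drawn at their measured value. With emodin against LPS_IFNg the apoptosis targets have a median of 0.53, the metabolic targets of -0.62 and the cell cycle genes of -1.11.

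Relatives of the members that are not classical p53 targets were examined beside them. Of 7, 5 were higher and 1 lower with emodin than with LPS_IFNg alone (median 1.06), and 4 and 2 under spike-in scaling. Cdkn1c, the p57 relative of p21, had levels of 6.18, 5.94, 5.90 and 6.01 on LPS_IFNg_emodin arrays, 3.19, 2.53, 2.06 and 3.21 on LPS_IFNg arrays, and 6.81, 7.20, 6.45 and 6.99 on control arrays. Unlike Cdkn1a it was lowest in LPS_IFNg, with a difference from control of -4.12 ± 0.24 (adjusted p = 2.22e-08), and emodin arrays stood 3.26 ± 0.24 above LPS_IFNg (adjusted p = 2.14e-07). Gadd45b and Gadd45g, relatives of Gadd45a, rose by 2.44 ± 0.12 and 1.44 ± 0.09 with emodin, under spike-in scaling by 1.74 and 0.74. Gadd45b stood 2.51 ± 0.12 above control in LPS_IFNg_emodin, where Gadd45a was at -2.63 from it, and Gadd45g was -2.16 ± 0.09 from control in LPS_IFNg. Sesn3 was higher than control by 1.68 ± 0.17 in LPS_IFNg and by 1.56 ± 0.17 in LPS_IFNg_emodin, and Ccng2, the relative of Ccng1, by 2.06 ± 0.15 in LPS_IFNg_emodin.

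Since Gdf15 and Sesn2 also answer to ATF4 and CHOP, 18 genes of that response were measured. In LPS_IFNg against control 16 were higher and 2 were not called, and all 18 differences were above 0 (median 1.22, lowest 0.07). Stc2, not above background on any control array, was at least 17.2-fold higher, Slc7a11, the cystine transporter, was higher by 4.11 ± 0.15 and Vldlr by 3.30 ± 0.61. With emodin against LPS_IFNg the direction was mixed, 6 higher and 10 lower (median -0.49). Under spike-in scaling 3 were higher (8.60% of all genes) and 13 lower (66.6% of all). Ddit3, which encodes CHOP, rose by 1.20 ± 0.12 (adjusted p = 3.69e-06, spike-in 0.50). Slc3a2 rose by 1.39 ± 0.08 (spike-in 0.69) and Ppp1r15a by 1.27 ± 0.07 (spike-in 0.57), and these 3 were called higher under either scaling. Atf4 itself was 0.24 ± 0.09 higher, and called lower at -0.46 under spike-in scaling. Cth, an enzyme of cysteine synthesis, was at least 7.40-fold lower and not above background on any emodin array, and Vldlr (-4.33 ± 0.61) and Stc2 (-4.15 ± 0.40) were above background on 2 and 1 of the 4 emodin arrays. In LPS_IFNg_emodin against control 12 were higher and 3 lower, led by Ppp1r15a, the feedback phosphatase subunit Gadd34 (2.68 ± 0.07), and Slc3a2 (2.07 ± 0.08), while Stc2 was below background on 3 of 4 emodin arrays and on all control arrays.

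Cell cycle genes of a list that p53 can repress through p21 and the DREAM complex were mostly lower with emodin. Of 23 tested, 16 were lower and 4 higher in LPS_IFNg_emodin than in LPS_IFNg (median -1.11). Under spike-in scaling 19 were lower (66.6% of all genes) and 3 higher (8.60% of all). With the replicate block in that scaling, Mki67 (0.82), Mcm2 (0.71) and Cenpa (0.69) were called higher. A part of p53 or p21 in these differences was not tested. The kinase Aurka fell by 2.71 ± 0.14 (adjusted p = 1.51e-08), Cdk1 by 2.70 ± 0.16 (adjusted p = 3.31e-08) and Cdc20 by 2.61 ± 0.16 (adjusted p = 4.29e-08), with Cdk1 above background on 3 and Cdc20 on 2 of the 4 emodin arrays. In LPS_IFNg against control 11 were lower and 4 higher, with Ccna2 (-2.07 ± 0.38, above background on 2 of 4 LPS_IFNg arrays), Cenpa (-1.19 ± 0.12) and Tyms (1.17 ± 0.10) as the largest. In LPS_IFNg_emodin against control 16 were lower and 4 higher. There Ccna2 was at least 4.55-fold and Kif23 at least 3.83-fold lower, neither being above background on an emodin array, and Cdc20 fell by 2.78 ± 0.16.

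Genes whose pattern over the 12 arrays lay near that of 3 of the members were found by the root mean square difference of log2 levels centred on each gene's mean. For Trp53 they were Rhob (0.0909), Gps2 (0.0945) and Gpsm3 (0.0962). For Mdm2 they included Nfkbia (0.142), which encodes the NF-kB inhibitor IkB alpha, and Marchf5 (0.151). For Cdkn1a they included Wdfy1 (0.180) and Malt1 (0.188). Nfkbia stood 2.69 above control in LPS_IFNg_emodin and 2.18 in LPS_IFNg, beside 2.81 and 2.41 for Mdm2.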

How the data were processed

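The deposited scanner files give an intensity for every spot. Per the submitters' processing notes, they were made with Agilent Feature Extraction 10.7.3.1. Its processed signal is an intensity with background already subtracted and no scaling between arrays, per the file headers. The deposited value table holds log2 values that matched quantile-scaled log2 signals centred on each probe's median (column medians -0.0314 to 0.0416, direction following signal). In it, the columns titled control replicates 1, 3 and 4 held the arrays of control replicates 4, 1 and 3. Group means are the same either way, and the table served only as an alternative. The labelled sex of a control array was read by the array's own replicate number and not by the column. The conflicts of sex in control, and leaving out the control arrays labelled male, rest on that choice.

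Control spots and outlier flags were left out, and spots were averaged per probe. The array's 75th percentile was subtracted from the log2 signal. Kept probes (27375 of 55681) were well above background on every array of 1 group or more. Accessions matched to RefSeq symbols named 27509 probes, and the kept probe with the highest mean stood for each of 13168 genes, of which 3353 had several. Symbols come from GRCm38.p6, while the array design is annotated on mm9, so no gene coordinates are given other than those of RefSeq promoter windows. Disagreement between probes was examined for the members only.

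One model with 3 group means was fitted to all genes of the 12 arrays with limma 3.58.1 in R 4.3.3 (lmFit, contrasts, eBayes). Calls are two-sided at a Benjamini-Hochberg adjusted p under 0.05 over all genes, or over all probes where a second probe is given. Errors are SE with 4 arrays per group. A gene above background on no array of 1 group has only a bound, written "at least". It sets the brighter group's mean against whichever was higher on each array of the dimmer group, the probe's signal or the lowest signal well above background. Spike-in scaling used 8 probes and a fit of the 8 stimulated arrays. The number of arrays limits the precision, and since no label ties a sample to an animal, p-values cover only the spread among these arrays, which may be technical.

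Replicate numbers are shared between groups. Same-numbered LPS_IFNg_emodin and LPS_IFNg arrays deviated together (correlations of deviations from the group means 0.15 to 0.28 in 4 pairs). Differently numbered arrays of these groups gave -0.24 to 0.05, so the numbers were taken to pair them. Same-numbered stimulated and control arrays did not deviate together. Differently numbered ones reached 0.31, so a correlation of this size does not by itself mark a pair. Pairing comes from this check and not from a label. The main fit and the exact permutation tests treated the arrays as unpaired.

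The members and lists were chosen with earlier results of these data known. Genes named are all 10 members, up to 3 called genes with the largest change per list and comparison, and the 3 genes nearest to Trp53, Mdm2 and Cdkn1a. Some genes that this rule names are not reported here. Ptprv, Cd68, Ighm and Ly6g, which belong to the lists, had no matching symbol. Alternatives changed the scaling, background correction (normexp with offset 50, on the median signal since no mean signal column was held), filter, probe rule, source table, samples and block. The code was tested on simulated data.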

Additional observations from a re-analysis of the deposited data

Results flagged for a closer look

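In 4 of 39 sets of 4 arrays (each member probe and the spike-in mean in each group), 1 array lay far from the other 3 by Dixon's criterion, which chance meets in about 1 of 20 such sets. Bbc3 was 3.50 on control replicate 1, below the other control arrays. Mdm2 was 5.25 on control replicate 2, below the others. Sesn2 was 2.75 on control replicate 4, above the others, and Trp53inp1 was 1.14 on LPS_IFNg replicate 3, above the others. The calls of Bbc3, Mdm2 and Trp53inp1 did not change when these arrays were left out one at a time, and without control replicate 4 Sesn2 was called lower in LPS_IFNg_emodin than in LPS_IFNg (adjusted p = 0.0196).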

How the results depend on the processing

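All 10 members kept their calls against control under all 24 alternatives each in LPS_IFNg_emodin, and in LPS_IFNg 8 did, the exceptions being Gdf15 and Ccng1. Spike-in scaling was not among these alternatives, and none of them could separate slide or age from stimulation. Spike-in scaling of LPS_IFNg_emodin against LPS_IFNg gave 1133 genes higher and 8767 lower, 3 members higher and 3 lower, and turned Trp53 to -0.56, Mdm2 to -0.30, Cdkn1a to -0.34, Sesn1 to -0.052 and Gadd45a to -0.52, since it lowers every difference by the same amount. With the replicate block added to that scaling, 1397 genes were higher and 9409 lower, and 3 members higher and 5 lower, Mdm2 and Cdkn1a being called lower. In the deposited value table Mdm2 had -0.0053 in that comparison, and Cdkn1a was not called there (0.24), under quantile scaling or with normexp (0.25, adjusted p = 0.0527). With no filter on dim probes, which tested more genes, 7843 genes were higher and 4780 lower in LPS_IFNg than in control. In LPS_IFNg_emodin 8202 were higher and 5329 lower than in control. The median of all genes against control moved to 0.22 in LPS_IFNg and to 0.27 in LPS_IFNg_emodin. Between LPS_IFNg_emodin and LPS_IFNg the same setting gave 4662 genes higher and 4997 lower. The count of members lower with emodin was 1 (Sesn2) in the fit of the 8 arrays and without the 4 arrays against their sex labels, and 0 to 1 when leaving out each array in turn. Leaving out each array in turn gave Gadd45a -0.0026 (without LPS_IFNg replicate 3) to 0.29. Gdf15 in LPS_IFNg against control was 0.32 without the 4 arrays against their sex labels (adjusted p = 0.0552), and 0.21 in the deposited value table. The replicate block on the paired arrays gave 4715 genes higher and 4884 lower with emodin and changed no member's call at the 75th percentile. Between LPS_IFNg or LPS_IFNg_emodin and control, the numbers pair nothing, and the block there gave 4178 and 4859 genes higher. Leaving out the 4 arrays against their sex labels, leaving out replicate 3 of both stimulated groups against control, the block against control and the block with spike-in scaling were chosen after seeing the data. Quantile scaling moved the median of all genes in LPS_IFNg_emodin against control to -0.14, and the percentile over probes detected on all arrays to -0.18. The causes of these changes were not tested except where stated. Dim signals limit Trp53 (128 to 545), the second probe of Cdkn1a (35.9 to 209) and, on arrays without emodin, the second probe of Trp53inp1 (72.1 to 188).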
